A study of Homo sapiens with 19 samples.

Results

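The data are the RNA levels of 3 libraries labelled SUDHL2, an established human line of diffuse large B-cell lymphoma of the activated B-cell-like subtype, and the question was what differs when a hairpin against EGR1 is expressed. A gene was taken as measured when it reached 1 FPKM in any of the 3 libraries and was not a short RNA gene (microRNA, small nucleolar, small nuclear and similar genes). This left 11346 of the 25266 genes used from the table (44.9%), and 3 of the 19 samples of the series. FPKM counts sequenced fragments per length of the gene and size of the library. The 3 groups were cells transduced with a control hairpin, with the EGR1 hairpin shEGR1#8 or with the EGR1 hairpin shEGR1#9, 1 library each. All 3, the control included, had received doxycycline, the drug that switches the hairpin on, at 20 ng/ml over 2 days, so any effect of the drug is common to them. Whether the transduced cells were pooled or 1 clone is not given in the sources used here, and the hairpin sequences were not analysed here.

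With 1 library per group there is no replicate in SUDHL2, so no test, error or p-value is given for it. Both EGR1 hairpin libraries are set against the same control library, and a peculiarity of that 1 library and an effect of the hairpins cannot be told apart. Differences are on the scale log2(FPKM + 1), which understates the change of low genes. A gene is called higher or lower when both shEGR1 libraries differ from control by 1.5-fold or more in 1 direction on that scale. SUDHL2 levels are listed in the order control, shEGR1#8, shEGR1#9, and paired differences in the order shEGR1#8, shEGR1#9.

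EGR1 is a zinc finger transcription factor that antigen receptor and growth factor signals switch on through the kinase ERK. It binds GC-rich sites and induces the corepressor NAB2, which in turn restrains it, as does the related NAB1. Activated B-cell-like lymphoma depends on B-cell receptor and MYD88 signals that reach NF-kB, and it makes cytokines that act back through JAK and STAT proteins. Type I interferon acts through a complex with STAT2 and IRF9 that binds a promoter sequence called the interferon-stimulated response element (ISRE).

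EGR1, the target of the hairpins, read 17, 13.7 and 15.4 FPKM. Both shEGR1 libraries lay below the control, by −0.29 and −0.13 log2 units, neither by 1.5-fold. NAB2 read 9.94, 14.6 and 14.6 FPKM and EGR2, a relative of EGR1, 10.6, 11.4 and 14.3 FPKM, all 4 hairpin values above control. NAB1 read 3.66, 3.13 and 3.96 FPKM, on either side of control. Of the 4 measured genes of the EGR and NAB list none was called, and EGR3 stayed under 1 FPKM and EGR4 was listed at 0. Because the target differed this little, and with the same hairpin labels its mean read above control in TMD8 and OCI-LY10 (in the latter by 0.42 (limma adjusted p = 0.337)), the libraries are named by their labels.

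The libraries of the SUDHL2 label were much like one another and much like those of the TMD8 label. Across 23212 genes the 3 SUDHL2 libraries correlated with r of 0.987 to 0.992 and with the 3 TMD8 libraries, another lymphoma line of this subtype, with r of 0.963 to 0.987, against 0.887 to 0.905 with the 9 libraries of OCI-LY10. The TMD8 shEGR1 libraries were closer to the SUDHL2 control (0.984 to 0.987) than to their own control (0.974). No gene was at 10 FPKM or more in all SUDHL2 libraries and under 1 FPKM in all TMD8 libraries, and 1 gene, LYPD3, showed the reverse. The same counts against OCI-LY10 were 123 and 68. That the SUDHL2 and TMD8 labels name different lines is therefore not shown by these values, and their tables may share a processing that the OCI-LY10 table lacks, which cannot be told apart from a likeness of the cells. In the SUDHL2 libraries 52.6 to 54.7% of the FPKM fell on short RNA genes, and 10601 to 10829 genes reached 1 FPKM. The number of reads is not given in the sources used here, so no counting interval can be set.

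B-cell markers bore out the labelled tissue, though not all of them at high levels. CD79A and CD79B, the signalling chains of the B-cell receptor, read 251, 298 and 289 FPKM and 133, 122 and 132 FPKM, and the B-cell transcription factor PAX5 75.5, 69.4 and 74.6 FPKM. POU2AF1, of the same list, read 3.88, 4.66 and 6.22 FPKM, against a mean of 160 FPKM in the OCI-LY10 controls. All 16 measured members of the B-cell list were called neither way, beside 3.75% of all genes called higher and 1.56% lower. Of 24 T and NK cell markers 3 were measured and 10 were listed at 0 in all 3 libraries, CD3D and CD3E among them. The sum of this list was 236, 267 and 248 FPKM, nearly all of it the cytotoxic protease gene GZMB (225, 254 and 235 FPKM). Of 18 myeloid markers 3 were measured (sums 13.99, 18.75 and 13.86 FPKM), and of 13 erythroid and endothelial markers none (sums of at most 0.751 FPKM). Of 17 fibroblast and epithelial markers 7 were measured (sums 106, 123 and 119.9 FPKM) and 2 were called higher, the collagen gene COL1A1 at 1.27, 2.62 and 3.37 FPKM and the adhesion gene CDH1 at 17.6, 35.4 and 31 FPKM. The part of such genes in the results below was not tested. In bulk RNA, fewer cells with a gene on and less of its RNA per cell cannot be told apart.

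In all, 426 genes (3.75% of those measured) were higher and 177 (1.56%) were lower in both shEGR1 libraries than in the control. The shEGR1#8 library alone differed from control at 636 genes upward (5.61%) and 352 downward (3.1%), and the shEGR1#9 library at 1042 upward (9.18%) and 837 downward (7.38%). Between the hairpin libraries, 475 genes were higher (4.19%) and 491 lower (4.33%) with shEGR1#9 than with shEGR1#8. The median of all genes was 0.01 for either hairpin, so the libraries were centred alike as deposited. Rescaling the libraries to 1 sum of FPKM without short RNA genes moved these medians to 0.11 and 0.12, and the share of higher genes among those called from 70.6 to 84.3% (from 64.4 to 79.3% for shEGR1#8 and from 55.5 to 72.4% for shEGR1#9). Differences are given as deposited and stand relative to that shift.

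The distance between the hairpin libraries shrank with the level of the genes faster than their distance from control. Among the 1832 genes with a mean under 2 FPKM, 23.1% lay 1.5-fold or more apart between the hairpin libraries, against 16% and 29.6% between each of them and control. Among the 639 genes with a mean of 100 FPKM or more, 0.626% lay that far apart between the hairpin libraries and 4.85 and 10% between each of them and control. The share of genes called in both libraries went from 7.75% in the lowest class to 4.54% in the highest. At higher levels the hairpin libraries were thus closer to each other than to the control they share.

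**Figure D1:**
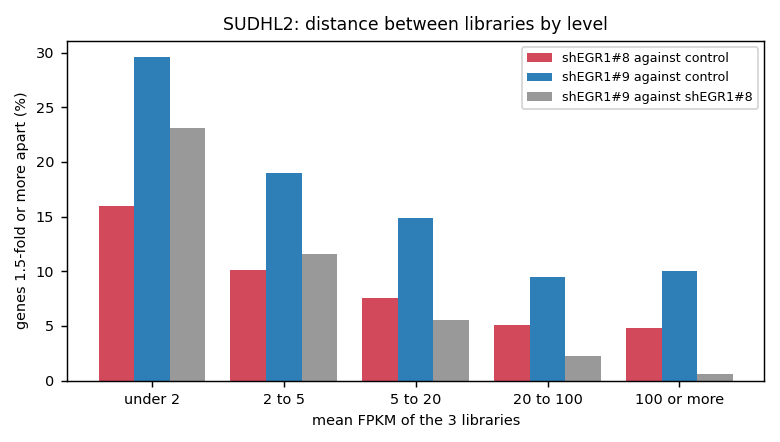
Share of genes 1.5-fold or more apart between pairs of SUDHL2 libraries (y axis, percent), by the mean FPKM of the gene over the 3 libraries (x axis). Grey bars, the distance between the hairpin libraries, go from 23.1% of genes under 2 FPKM to 0.626% at 100 FPKM or more, while the red and blue bars, each hairpin library against control, end at 4.85 and 10%.

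Of the 34 gene lists described, that of the interferon response held the largest share of genes called higher with the shEGR1 labels. Of 54 list members 50 were measured, 37 were called higher, none was called lower, and the median difference was 1.02 and 0.91, against 0.01 for all genes and 3.75% of them called higher. All 50 read above control in both libraries, against 4301 of all 11346 genes. IFIT2, IFIT3 and IFIT1 belong to a family of interferon-induced proteins that bind viral RNA, and the first 2 lay furthest above control in the list. IFIT3 read 11.1, 56.4 and 45.5 FPKM (differences 2.25 and 1.95), IFIT2 0.654, 5.95 and 6.18 FPKM (2.07 and 2.12) and IFIT1 5.2, 20.8 and 17.5 FPKM (1.81 and 1.57). The 3 were named for their distance above control in both libraries. Between the hairpin libraries, shEGR1#9 differed from shEGR1#8 by −0.30, 0.05 and −0.24 for IFIT3, IFIT2 and IFIT1. The reference annotation (RefSeq) places IFIT2 and IFIT3 in overlap with LIPA, and how the authors' counting split such reads is not given.

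The promoters of IFIT1, IFIT3 and ISG15 are shown because they hold matches to the ISRE in the 250 bases before the gene start. The pattern searched was GAAA, any 2 bases, then GAAA, on both strands, and the capitals mark each match. The windows are RefSeq's on GRCh38.p14, plus strand, at chr10:89392373-89392622 for IFIT1, chr10:89327747-89327996 for IFIT3 and chr1:1013247-1013496 for ISG15.
IFIT1: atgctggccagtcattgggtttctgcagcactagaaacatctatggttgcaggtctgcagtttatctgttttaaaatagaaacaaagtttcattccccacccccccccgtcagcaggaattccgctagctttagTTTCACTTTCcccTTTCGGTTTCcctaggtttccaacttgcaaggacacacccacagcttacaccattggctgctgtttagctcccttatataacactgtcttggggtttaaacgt
IFIT3: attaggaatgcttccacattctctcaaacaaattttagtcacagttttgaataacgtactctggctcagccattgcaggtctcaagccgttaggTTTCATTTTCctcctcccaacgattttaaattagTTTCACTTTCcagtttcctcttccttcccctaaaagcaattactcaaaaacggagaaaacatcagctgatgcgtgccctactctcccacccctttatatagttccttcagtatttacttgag
ISG15: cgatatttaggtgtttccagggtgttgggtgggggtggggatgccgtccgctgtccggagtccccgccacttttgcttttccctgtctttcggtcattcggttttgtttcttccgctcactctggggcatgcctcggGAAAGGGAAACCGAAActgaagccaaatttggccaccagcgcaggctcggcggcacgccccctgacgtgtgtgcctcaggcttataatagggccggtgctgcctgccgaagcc
The matches begin 116 and 103 bases before the start of IFIT1, 156 and 122 before that of IFIT3, and 113 and 107, in overlap, before that of ISG15. Of the 37 interferon genes called higher 28 had a promoter in the reference table, and 19 of these (67.9%) held the ISRE. The list was drawn up from interferon response genes, so a high share says little about these libraries. The share was 9.97% of the 311 matched promoters among all genes called higher, which include these 28. It was 3.03% of 132 among those called lower and 2.48% of 9070 among all genes measured. It was 3.07% of all 27305 promoters of the table. A match is a run of letters, and binding was not measured here.

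The same search was made for an EGR1 motif, GCGNGGGCG on both strands, since EGR1 is the target. The promoters of EGR1 (chr5:138465229-138465478) and NAB2 (chr12:57088864-57089113), both on the plus strand of GRCh38.p14, each hold 1 match, marked in capitals, which begins 198 and 62 bases before the gene start.
EGR1: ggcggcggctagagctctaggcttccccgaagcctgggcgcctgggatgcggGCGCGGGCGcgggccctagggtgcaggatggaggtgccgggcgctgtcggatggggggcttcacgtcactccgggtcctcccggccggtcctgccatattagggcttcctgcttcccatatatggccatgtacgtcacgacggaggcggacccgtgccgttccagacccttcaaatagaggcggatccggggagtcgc
NAB2: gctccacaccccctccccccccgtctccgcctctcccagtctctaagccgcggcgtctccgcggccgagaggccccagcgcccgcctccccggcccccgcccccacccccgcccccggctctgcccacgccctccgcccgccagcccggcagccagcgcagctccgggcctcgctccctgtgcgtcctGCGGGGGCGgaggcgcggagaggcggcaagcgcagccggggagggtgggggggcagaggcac
This motif was in 12.9% of the matched promoters of genes called higher, 6.06% of those called lower and 13.4% of those of all genes measured (8.25% of all promoters in the table). The share among genes called higher was thus close to the background. The E-box CACGTG, the site of MYC and of other factors, was in 6.43, 8.33 and 9.49% of the same sets and in 6.49% of all promoters. EGR1 and E-box matches overlapped in 2 promoters of the table, and ISRE matches overlapped neither.

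The interferon genes called higher included signalling factors, sensors and effectors. Of the signalling factors, STAT2 read 9.33, 24.9 and 26.3 FPKM and IRF9 20.5, 36.8 and 35.8 FPKM. IRF7, which amplifies interferon production, read 21.2, 53.4 and 45.8 FPKM (differences 1.29 and 1.08). IRF1, another transcription factor of the response, read 3.65, 6.85 and 11.4 FPKM and was the more distant from control with shEGR1#9. Among the sensors of viral RNA, DDX58 (RIG-I) read 3.68, 7.9 and 9.17 FPKM and DHX58 7.51, 18.1 and 14 FPKM, both called higher. IFIH1 (MDA5), at 11.6, 21.9 and 14.5 FPKM, passed 1.5-fold with shEGR1#8 alone.

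The antiviral effectors with the highest levels were called higher as well. ISG15, a ubiquitin-like protein, read 217, 521 and 472 FPKM (differences 1.26 and 1.11). MX1, a GTPase that traps viral nucleocapsids, read 276, 531 and 516 FPKM, and IFI27 737, 1345 and 1227 FPKM. The membrane proteins IFITM1, IFITM2 and IFITM3, which block entry of viruses and share much sequence, read 142, 414 and 372, 46.9, 117 and 121 and 12.8, 43.3 and 44.2 FPKM, and reads could be split between them. The oligoadenylate synthetases, which activate an RNA-degrading enzyme, were all called: OAS1 at 38.2, 86 and 88.8 FPKM, OAS2 at 85.1, 148 and 151 FPKM and OAS3 at 15.6, 40.2 and 44 FPKM. USP18, an enzyme that removes ISG15 and damps the receptor, read 23.4, 57.2 and 59.7 FPKM.

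The 13 measured members not called lay above control by less than 1.5-fold in 1 or both libraries. ADAR, an RNA editing enzyme with an interferon-inducible form, differed by 0.40 and 0.41 log2 units, MX2 by 0.43 and 0.46 and BST2, which tethers budding viruses, by 0.23 and 0.37. CXCL10, a chemokine induced by interferon, read 9.51, 13.3 and 10.9 FPKM. The smallest of the 100 differences belonged to HERC6 with shEGR1#9 (0.10). CMPK2 was listed at 0 and HERC5, RSAD2 and LAMP3 stayed under 1 FPKM. All 3 other scalings kept the list's median above 0.

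**Figure D2:**
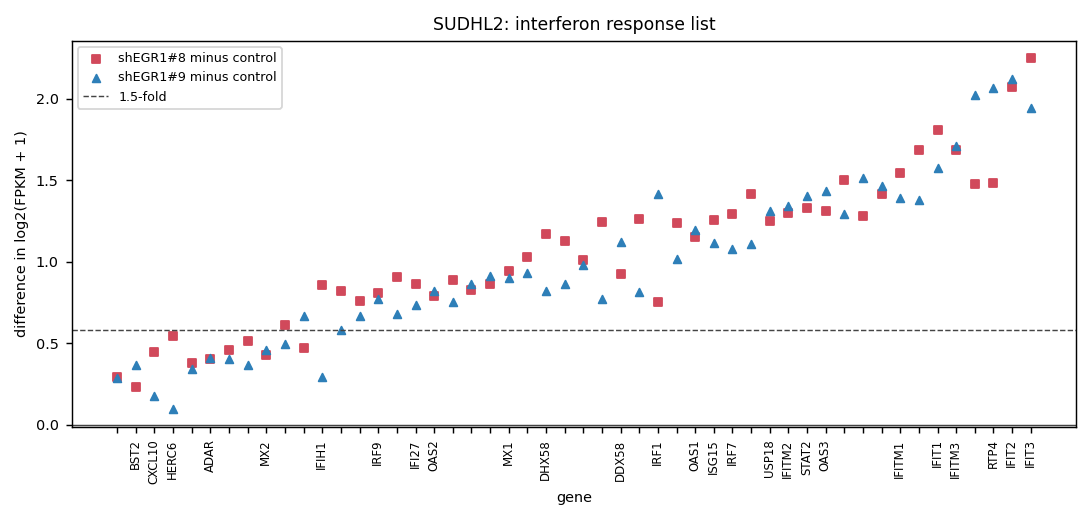
Difference of each SUDHL2 shEGR1 library from control in log2(FPKM + 1) (y axis) for the 50 measured interferon response genes (x axis, ordered by the mean difference, with some of them labelled), with the 1.5-fold level dashed. All 100 points lie above 0, and 37 genes have both points at or above the dashed line.

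In OCI-LY10, where the same hairpin labels have 3 libraries per group and limma gives a test, 38 of 47 tested interferon members rose and none fell (adjusted p under 0.05), with a median of 0.60. There, 656 of 10380 genes (6.32%) rose and 298 (2.87%) fell. IFIT3 rose by 1.21 (SE 0.087, limma adjusted p = 0.000144) and IFIT1 by 1.52 (SE 0.092, limma adjusted p = 9.87e-05). With the TMD8 label the list's medians were 1.08 and 0.85, and IFIT3 read 1.21, 10.2 and 6.89 FPKM. The OCI-LY10 and TMD8 controls are other libraries than that of SUDHL2.

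Genes of immune checkpoints and costimulation were the next group, with 8 of 16 measured members called higher and none lower (medians 0.56 and 0.68). Over all genes measured, 3.75% were called higher and 1.56% lower. IL4I1, which breaks down phenylalanine and tryptophan outside the cell, read 27, 249.9 and 181 FPKM (differences 3.17 and 2.70). By the smaller of its differences it was furthest above control of all genes of 5 FPKM or more but 1, a readthrough transcript. LAG3, an inhibitory receptor best known from T cells, read 0.887, 9.72 and 13.7 FPKM (2.51 and 2.96), and PDCD1, which encodes PD-1, 8.9, 26.1 and 24.9 FPKM (1.45 and 1.39). All 3 were named for their distance above control in both libraries, so the control being lowest follows from that choice.

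The reference places IL4I1 in overlap with NUP62 and ATF5. ATF5, a stress transcription factor, was also called higher, at 533, 1373 and 1257 FPKM, while NUP62, a nuclear pore gene, read 195, 175 and 177 FPKM. How the authors' counting split reads over these genes is not given, so IL4I1 and ATF5 are uncertain. In OCI-LY10, IL4I1 rose by 1.60 (SE 0.092, limma adjusted p = 9.87e-05) and ATF5 differed by 0.13 (limma adjusted p = 0.43). With the TMD8 label, IL4I1 read 141, 272 and 384 FPKM, again lowest in the control.

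Other members of the checkpoint list were called with smaller differences. TNFRSF14 (HVEM), the ligand of the inhibitory receptor BTLA, read 3.92, 7.98 and 7.12 FPKM. CD274 (PD-L1) read 2.15, 3.78 and 4.56 FPKM, short of 1.5-fold with quantile normalization (0.53), and CD86, which costimulates T cells, 24.7, 38.3 and 41.6 FPKM. The galectin genes LGALS9 and LGALS1 read 66.5, 104 and 104 and 76.1, 120.2 and 127 FPKM. CD80, at 7.01, 7.67 and 7.16 FPKM, and CD47, the signal that restrains phagocytes, at 13.9, 15.3 and 9.9 FPKM, were not called. In OCI-LY10, 10 of 13 tested members of this list rose in limma and none fell, with LAG3 up by 0.89 (SE 0.12, limma adjusted p = 0.00315) and PDCD1 by 0.87 (SE 0.15, limma adjusted p = 0.00987). With the TMD8 label LAG3 read 0.627, 2.72 and 3.03 FPKM and PDCD1 10.4, 23.1 and 19.9 FPKM, both lowest in the control. The list's medians there were −0.36 and −0.17, below 0.

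Cytokine genes were higher in part. Of 18 measured, 6 were called higher and none lower (medians 0.57 and 0.64), beside 3.75% of all genes higher and 1.56% lower. CCL4 and CCL3, chemokines that activated B cells make for T cells and monocytes, read 4.89, 25.2 and 35 FPKM (differences 2.15 and 2.61) and 2.1, 7.13 and 15.1 FPKM (1.39 and 2.38). CCL22, which attracts regulatory T cells, read 3.21, 9.51 and 12.1 FPKM. CCL3 and CCL4 have near-identical copies, so their levels are uncertain. TNFSF10 (TRAIL), a death ligand that interferon induces, read 1.62, 7.01 and 4.95 FPKM and TNFSF9 (4-1BB ligand) 14.1, 31.2 and 30.7 FPKM. IL6 read 21.4, 35 and 38.7 FPKM and was called, while IL10, the other cytokine typical of this lymphoma, read 57.4, 61.4 and 77.7 FPKM and was not.

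CCL4 rose in OCI-LY10 by 0.72 (SE 0.083, limma adjusted p = 0.00134) and CCL3 by 1.12 (SE 0.072, limma adjusted p = 0.000113), whereas CCL22 differed by −0.02 (limma adjusted p = 0.87). Under the TMD8 label CCL4 read 12.6, 15.2 and 22.2 FPKM. IL6 was listed at 0 in the OCI-LY10 group means. Thus the higher chemokines of SUDHL2 had counterparts in the replicated line for CCL3 and CCL4 but no call for CCL22.

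Calls among the receptors and kinases that drive this lymphoma were near the share over all genes, 3.75% higher and 1.56% lower. Of 31 measured genes of B-cell receptor and MYD88 signalling 1 was called higher, TLR9, an endosomal sensor of DNA, at 17.7, 27.9 and 32.9 FPKM, and none lower (medians 0.16 and 0.24). In this list 22 members read above control in both libraries and 5 below, against 4301 and 4012 of all 11346 genes. The adaptor MYD88 read 44.1, 51.8 and 57.2 FPKM, and the kinases BTK and SYK 149.6, 165 and 174 and 55.4, 64.5 and 70.7 FPKM. In the NF-kB list 6 of 34 were called higher and 1 lower (medians 0.21 and 0.17). The 6 include CCL3, CCL4, CCL22 and CCR7, a homing receptor at 6, 16.8 and 21.2 FPKM, and the adaptor TRAF1 at 2.87, 5.51 and 5.97 FPKM. The subunits NFKB1 and REL read 57.8, 48.7 and 44.5 and 33.2, 32.8 and 27.5 FPKM and the inhibitors NFKBIA and TNFAIP3 85.1, 92.1 and 102 and 20.7, 22.6 and 23.7 FPKM, none called. So most of the list's median came from small differences, with 23 members above control in both libraries and 9 below.

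The NF-kB member called lower was BCL2A1, a survival gene of the BCL2 family, at 94.5, 45 and 49 FPKM (differences −1.05 and −0.93). The shEGR1 libraries stood near 1 level, and BCL2A1 was named for lying below control in both. In OCI-LY10 it differed by −0.26 (SE 0.077, limma adjusted p = 0.068), and with the TMD8 label it read 302, 81.9 and 79.9 FPKM. Within the BCL2 family BAK1, a pore-forming killer, was called higher at 35.6, 55.1 and 60.2 FPKM. BCL2 and MCL1, both survival genes, read 14.5, 10.6 and 9.7 and 64, 84.9 and 73.5 FPKM, and BCL2L11 (BIM) 88.6, 97 and 82.8 FPKM, none called. The list of 16 thus held 1 gene called each way, beside 3.75% of all genes called higher and 1.56% lower.

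In the JAK-STAT list 2 of 21 measured members were called higher, the feedback inhibitor SOCS3 at 30.6, 56 and 54.9 FPKM and the cytokine IL6. Among all genes 3.75% were called higher and 1.56% lower. STAT3 read 69.7, 76.6 and 70.1 FPKM and JAK1 25.9, 22.3 and 24.2 FPKM, neither called, and PIM1, a kinase target of the pathway, 72.5, 62.6 and 69 FPKM. The list's medians were 0.28 and 0.29, with 17 members above control in both libraries. In OCI-LY10 6 of 18 tested members rose in limma.

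Immediate early genes, the class to which EGR1 belongs, held 2 calls among 20 measured members, both higher. The shares of all genes called were 3.75% higher and 1.56% lower. NR4A1, an orphan nuclear receptor induced by receptor signals, read 2.53, 6.4 and 8.45 FPKM (differences 1.07 and 1.42) and ZFP36, which speeds decay of inflammatory messages, 38, 60.8 and 65.9 FPKM. FOS and JUN, the partners of AP-1, read 2.09, 2.94 and 2.65 and 14.2, 14.6 and 15.4 FPKM. BTG2, an antiproliferative gene, read 64.6, 97.5 and 97 FPKM, near the 1.5-fold level on both sides of it. In OCI-LY10, NR4A1 rose by 0.65 (SE 0.12, limma adjusted p = 0.0119) and ZFP36 by 0.80 (SE 0.15, limma adjusted p = 0.012). Among 10 ERK feedback genes, DUSP5, a phosphatase of nuclear ERK, was called higher at 26.2, 50.9 and 40.5 FPKM and PHLDA1 lower at 9.68, 5.97 and 5.86 FPKM, short of 1.5-fold with the rescaling to 1 sum (−0.51). The median of this list was near 0 and turned sign with the rescaling to 1 sum.

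Metabolic genes were high on the list of single genes. ALDOC, a glycolytic aldolase, read 3.6, 23.2 and 28.6 FPKM (differences 2.40 and 2.69), and DDIT4, a stress-induced inhibitor of mTORC1, 16, 68 and 72 FPKM (2.02 and 2.10). PFKFB4 and PFKFB3, which make the activator of glycolysis, read 0.448, 4.21 and 3.78 and 6.49, 13.7 and 13.6 FPKM, and the lactate exporter SLC16A3 0.0624, 1.77 and 2.09 FPKM. Together with ENO2, not called with median-ratio scaling (0.58) or quantile normalization (0.54), these are the 6 genes called higher among 30 of glycolysis and hypoxia (medians 0.37 and 0.37, none lower). Among all genes 3.75% were called higher and 1.56% lower. The abundant enzymes stayed nearer control, GAPDH at 2835, 2655 and 2727 FPKM, ENO1 at 931, 918 and 895 FPKM and LDHA at 624, 563 and 540.2 FPKM. CA9, a classic hypoxia target, read 0, 0.375 and 2.04 FPKM and VEGFA 8.22, 12.8 and 14.9 FPKM, neither called in both libraries.

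In OCI-LY10, ALDOC rose by 0.72 (SE 0.14, limma adjusted p = 0.0155), DDIT4 by 0.51 (SE 0.07, limma adjusted p = 0.00313) and SLC16A3 by 0.88 (SE 0.12, limma adjusted p = 0.00363), and 4 of 29 tested members of the list rose and 1 fell in limma. Under the TMD8 label ALDOC and DDIT4 read 10.2, 16.4 and 37.9 and 29.7, 55.5 and 96.9 FPKM, lowest in the control each time, while SLC16A3 read 1.7, 0.741 and 6.92 FPKM, on either side of it. The list's TMD8 medians were −0.22 and 0.16.

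Cholesterol synthesis genes stood above control in SUDHL2, 21 of 24 measured in both libraries, with 6 called higher and none lower (medians 0.44 and 0.51). Over all genes the calls were 3.75% higher and 1.56% lower. SREBF1, a transcription factor of lipid synthesis, read 5.27, 13.2 and 15.8 FPKM (differences 1.18 and 1.42). INSIG1, which holds such factors in the endoplasmic reticulum and is itself their target, read 40.4, 76.1 and 65.9 FPKM, and the enzymes MVD, DHCR7 and LSS 19.3, 42 and 36.8, 37.4, 63.4 and 67.5 and 24.9, 39.5 and 42.4 FPKM. In OCI-LY10 none of the 24 members passed in limma (median −0.03), and with the TMD8 label the medians were −0.46 and −0.18. The group's higher level was thus seen with the SUDHL2 label, and its difference from the other lines was not tested.

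Genes of adhesion and homing included 7 called higher among 20 measured, with none lower (medians 0.35 and 0.51). The same shares over all genes were 3.75% and 1.56%. The integrin subunits ITGB7, which guides cells to the gut, and ITGAX (CD11c) read 5.12, 13.2 and 14.9 and 4.76, 11.2 and 15.5 FPKM. SEMA7A, a semaphorin anchored on the membrane, read 64.9, 112 and 110.3 FPKM, and the chemokine receptor CXCR4 9.84, 15.3 and 15.5 FPKM, which was not called with median-ratio scaling (0.57) or quantile normalization (0.55). CD44, a hyaluronan receptor, read 287, 244 and 246 FPKM and was not called. In OCI-LY10, SEMA7A rose by 1.18 (SE 0.12, limma adjusted p = 0.000615) and ITGB7 differed by 0.06 (limma adjusted p = 0.617).

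The other genes furthest above control had varied roles. OTOF, which encodes the synaptic calcium sensor otoferlin, read 8.07, 48.9 and 52.1 FPKM (differences 2.46 and 2.55) and rose in OCI-LY10 from a very low level by 0.73 (SE 0.11, limma adjusted p = 0.00416). PTGIR, the prostacyclin receptor, read 1.14, 9.42 and 10.1 FPKM. LSP1, an actin-binding protein of leukocytes, read 2.11, 11.2 and 15.5 FPKM, and the selenoprotein SELM 0.465, 3.81 and 7.08 FPKM. The reference places PTGIR in overlap with CALM3 and LSP1 with PRR33 and microRNA genes, so both are uncertain as IL4I1 is. CDKN1A, the gene of the cell cycle inhibitor p21, read 22.6, 62.6 and 66.5 FPKM (1.43 and 1.52) and was the 1 call among 23 p53 targets, with MDM2 at 25.2, 21.8 and 22.3 FPKM and BAX at 275, 245 and 257 FPKM. Both hairpin levels of MDM2 and BAX lay below control. OTOF, PTGIR, LSP1, SELM and CDKN1A were named for lying above control in both libraries, so that they do follows from the choice. The 1 call among the p53 targets stands beside 3.75% of all genes called higher and 1.56% lower.

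Readthrough transcripts, which join neighbouring genes, took 2 of the 15 highest places. ATP5J2-PTCD1 read 0.0125, 8.08 and 7.75 FPKM while PTCD1 read 10.8, 2.97 and 4.15 FPKM. TNFAIP8L2-SCNM1 read 1.46, 11 and 14.9 FPKM while SCNM1 read 21.7, 12 and 7.3 FPKM. In each pair the readthrough is higher and the single gene lower. How reads were split between them is not given and was not tested, so all 4 are uncertain. RPL21, a ribosomal protein gene, read 76.5, 272 and 237 FPKM and is uncertain because it has many processed copies.

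**Figure D3:**
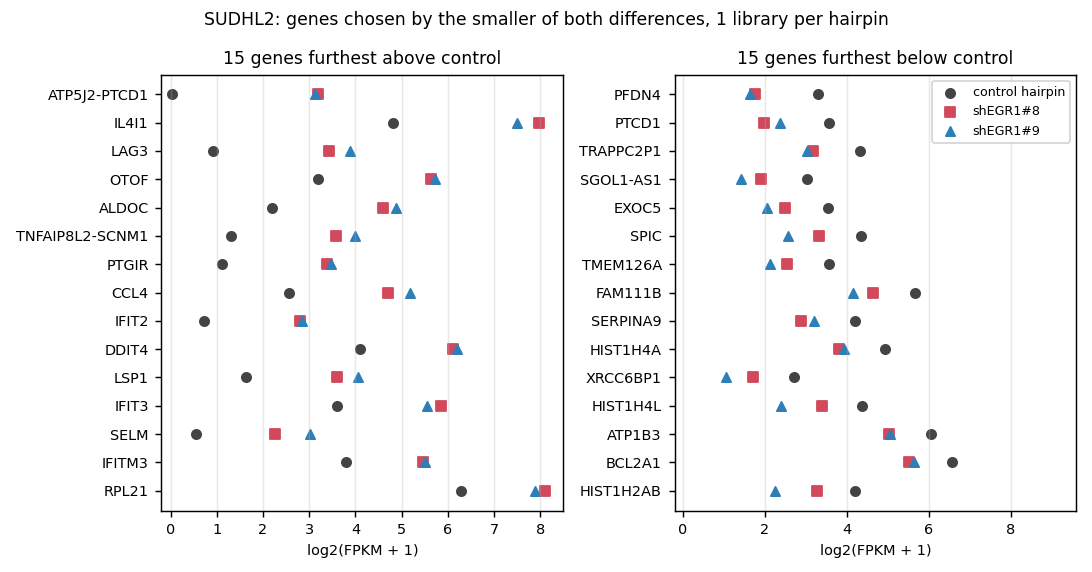
Level of the 15 SUDHL2 genes furthest above control (left) and the 15 furthest below it (right) in log2(FPKM + 1) (x axis), chosen by the smaller of both hairpin differences among genes of 5 FPKM or more in any library. Circles are the control library, squares shEGR1#8 and triangles shEGR1#9, and IL4I1 reads 27, 249.9 and 181 FPKM in control, shEGR1#8 and shEGR1#9.

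Fewer genes were lower, and by less. At 2-fold, 31 genes were lower in both libraries, against 123 higher. PFDN4, a subunit of the prefoldin chaperone, read 8.82, 2.36 and 2.11 FPKM (differences −1.55 and −1.66) and EXOC5, part of the exocyst, which docks secretory vesicles, 10.6, 4.67 and 3.15 FPKM (−1.03 and −1.48). ATP1B3, a subunit of the sodium pump, read 65, 31.7 and 32.4 FPKM (−1.01 and −0.98), with hairpin libraries almost level. In OCI-LY10, EXOC5 changed by −1.19 (SE 0.11, limma adjusted p = 0.000328) and ATP1B3 by −0.69 (SE 0.07, limma adjusted p = 0.000614), while PFDN4 differed by −0.19 (limma adjusted p = 0.253). Under the TMD8 label the 3 read 28.1, 7.57 and 7.37, 21.9, 4.88 and 4.37 and 74.3, 32.8 and 32.7 FPKM, each highest in the control.

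Among the other genes furthest below control, SERPINA9 (GCET1), a marker of germinal centre B cells, read 17.5, 6.41 and 8.26 FPKM, and SPIC, an ETS transcription factor of the SPI1 family, 19.3, 9.02 and 4.95 FPKM. FAM111B, a protease gene, read 49.3, 23.9 and 16.7 FPKM. The mitochondrial assembly gene TMEM126A read 10.9, 4.85 and 3.37 FPKM and XRCC6BP1, a mitochondrial peptidase gene, 5.57, 2.3 and 1.08 FPKM, both lowest with shEGR1#9. HIST1H4A, HIST1H4L and HIST1H2AB read 29.6, 13 and 14.3, 19.8, 9.47 and 4.3 and 17.4, 8.66 and 3.79 FPKM, but histone genes have near-identical copies and are uncertain, as is TRAPPC2P1, a processed copy of another gene, at 18.9, 8.02 and 7.19 FPKM. SGOL1-AS1, at 7.18, 2.74 and 1.68 FPKM, lies antisense to SGOL1, and the counting is not stated to use strand.

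Lists of growth and division lay slightly below control. Their calls stand beside the 3.75% of all genes measured that were called higher and the 1.56% called lower. Of 47 genes of E2F and DNA replication 2 were called lower and none higher (medians −0.21 and −0.23), among them the sliding clamp PCNA at 203, 125 and 123 FPKM, which fell just short of 1.5-fold with the rescaling to 1 sum (−0.58). There, 35 members read below control in both libraries and 2 above, against 4012 and 4301 of all 11346 genes. In the mitosis list 1 of 45 was called, the checkpoint gene MAD2L1, lower at 50.4, 30.003 and 26.9 FPKM (medians −0.13 and −0.19), while MKI67, the marker of cycling cells, read 69.8, 61.8 and 64.8 FPKM. In the MYC and nucleolar list none of 40 was called (medians −0.13 and −0.14), with MYC itself at 126, 119 and 115 FPKM and nucleolin (NCL) at 1388, 1117 and 1083 FPKM. In OCI-LY10, 5 of 47, 3 of 45 and 3 of 40 members of these lists fell in limma and none rose. Over all genes tested there, 2.87% fell and 6.32% rose. The 3 medians over the mean of both differences were −0.21, −0.15 and −0.15 as deposited and −0.09, −0.04 and −0.03 with the rescaling to 1 sum, and stayed below 0 with the other scalings.

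The ribosomal protein genes of the list leaned one way. The list of 57 genes leaves out RPL21, which was called higher and is uncertain, as given above. Calls here stand beside 3.75% of all genes called higher and 1.56% lower. As deposited, all 56 measured members read below control in both libraries, with medians of −0.26 and −0.27, yet 1 was called, RPL23 at 999, 608 and 608 FPKM. The median over the mean of both differences was −0.28 as deposited, −0.16 with the rescaling to 1 sum and −0.06 with quantile normalization, which also put RPL23 short of 1.5-fold (−0.43). In OCI-LY10 none of 56 passed in limma (median −0.07), and with the TMD8 label the medians were −0.79 and −0.83. Of 32 genes of oxidative phosphorylation none was called (medians −0.11 and −0.18), with COX7C, a small subunit of cytochrome oxidase, at 613, 473 and 376 FPKM and SDHA, of succinate dehydrogenase, at 63.7, 71.9 and 71 FPKM.

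Calls in the lists of B-cell identity stand beside the 3.75% of all genes measured called higher and the 1.56% called lower. IRF4, which this lymphoma needs and which is known to restrain IRF7, read 402, 325 and 298 FPKM and SPIB, its partner, 282, 350.1 and 355 FPKM, neither called. BCL6, PRDM1 and XBP1, which steer germinal centre and plasma cell fate, read 19.7, 26.5 and 20.9, 10.9, 8.76 and 9.31 and 13.6, 17.2 and 16.3 FPKM. SPI1 (PU.1) was the 1 call among 26 such factors, higher at 7.07, 14.5 and 15.2 FPKM. Among 19 plasma cell genes CD38, a surface enzyme that interferon also induces, was called higher at 2.29, 8.79 and 7.77 FPKM, as was ITM2C at 27.2, 42.5 and 49.5 FPKM. Among 15 germinal centre markers STAP1, an adaptor of receptor signalling, was called higher at 1.56, 5.29 and 5.28 FPKM and SERPINA9 lower. Among 21 markers of this lymphoma subtype TNFRSF13B (TACI), a receptor for survival factors of B cells, was called higher at 41.1, 62.6 and 75.3 FPKM, though not with median-ratio scaling (0.58). The list medians here lay within 0.25 of 0, and those of the fate factors, the subtype markers and the germinal centre list turned sign under another scaling.

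Antigen presentation could be read in part. Of 15 class II genes 6 were measured and 7 were listed at 0 in all 3 libraries, HLA-DRA among them, and of 16 class I genes 6 were measured and 9 were listed at 0, including HLA-B and TAP1. Genes with near-identical copies are uncertain, and a 0 may be a failed estimate. CD74, the invariant chain of class II, read 712, 717 and 799 FPKM, CIITA, the class II transactivator, 6.51, 6.57 and 8.62 FPKM, and B2M, the class I light chain, 493, 551 and 441 FPKM. No member of either list was called, beside 3.75% of all genes called higher and 1.56% lower.

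**Figure D4:**
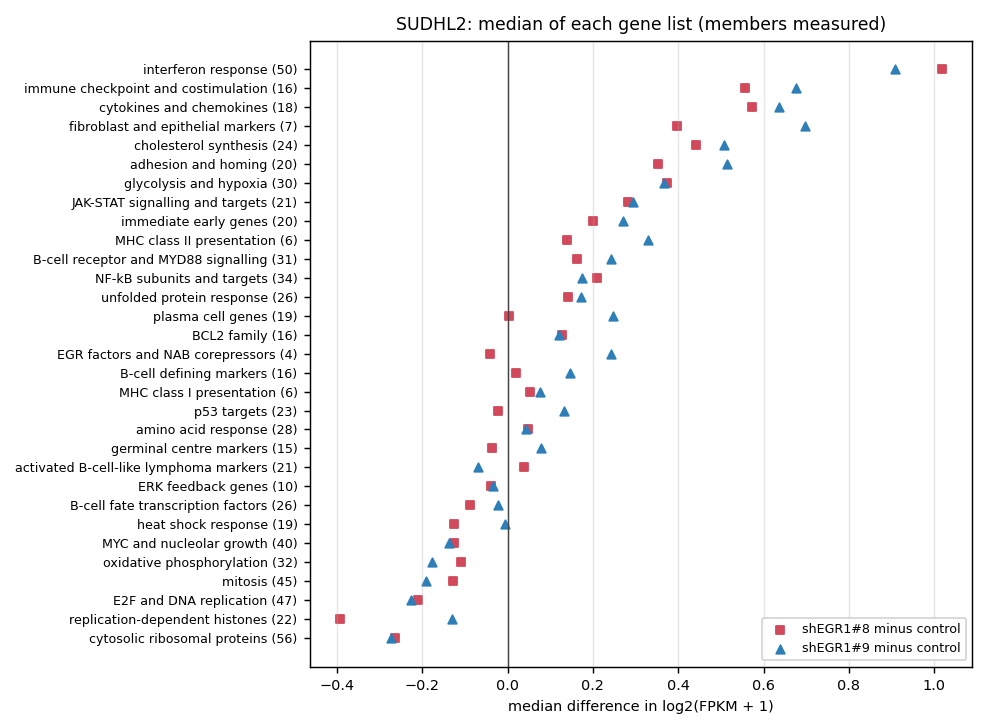
Median difference from control in log2(FPKM + 1) (x axis) over the measured members of each gene list (y axis, with their number), for shEGR1#8 (squares) and shEGR1#9 (triangles). The interferon list stands at 1.02 and 0.91, and the ribosomal protein list is lowest for shEGR1#9 at −0.27.

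OCI-LY10 offers a measurement of the SUDHL2 calls in other libraries with replicates. Of the 280 genes called higher in SUDHL2 (2.93%) among the 9550 present in both tables, 135 rose in OCI-LY10 in limma at an adjusted p under 0.05 and none fell. They are 48.2% of the SUDHL2 genes and 22.8% of the 592 OCI-LY10 ones, where 6.2% of all common genes rose. Of the 115 genes called lower (1.2%), 18 fell and none rose, which is 15.7% of the SUDHL2 genes and 6.36% of the 283 OCI-LY10 ones, where 2.96% of common genes fell. The median OCI-LY10 difference was 0.31 for the genes higher in SUDHL2 and −0.16 for the lower ones, against 0.03 for all. Without 1 of the 3 OCI-LY10 control libraries the shared higher genes numbered 87, 84 and 70, and the shared lower genes 9, 7 and 10.

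Of the 15 genes furthest above control in SUDHL2, 11 could be tested in OCI-LY10 and 9 rose, the exceptions being LSP1, at 0.27 (limma adjusted p = 0.0876), and RPL21. Of the 15 furthest below, 9 could be tested and 2 fell, EXOC5 and ATP1B3. With the TMD8 label, 10 of the former and 9 of the latter differed by 1.5-fold or more in the same direction in both hairpin libraries. Over all common genes, 104 of 391 genes called higher in SUDHL2 were so with the TMD8 label (26.6%, and 15.5% of its 671, against 6.14% of 10932 common genes), and 7 were lower. Of 156 genes called lower, 74 were lower there (47.4%, and 4.76% of its 1556, against 14.2%), and 12 were higher. The share of FPKM on short RNA genes was 36.3% in the TMD8 control and 62.1 and 58.0% in the TMD8 shEGR1 libraries, and their part in these counts was not tested.

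**Figure D5:**
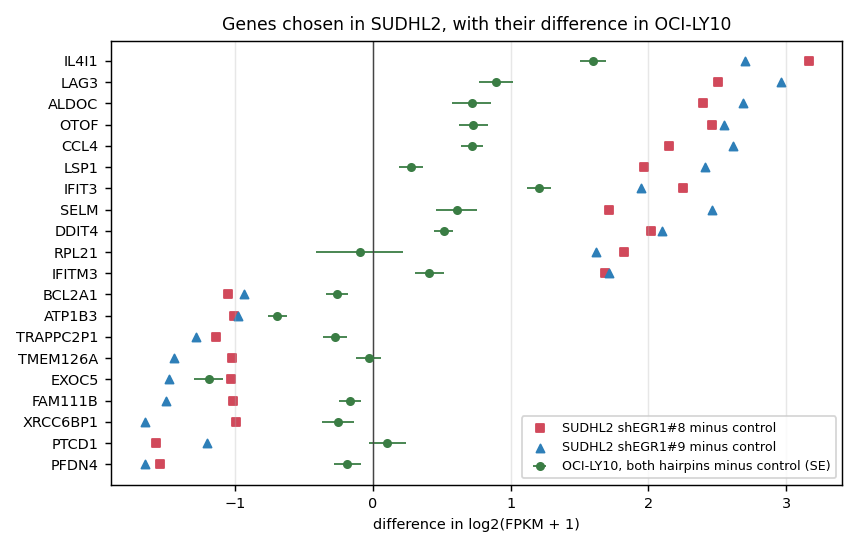
Difference from control in log2(FPKM + 1) (x axis) for those of the 30 most distant SUDHL2 genes that could be tested in OCI-LY10 (y axis). Squares and triangles are the 2 SUDHL2 libraries, and circles the OCI-LY10 limma estimate with its SE over 9 libraries. IL4I1 stands at 1.60 in OCI-LY10, and EXOC5 at −1.19.

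The genes furthest apart between the hairpin libraries of SUDHL2 included some whose reads can go to a copy or an overlapping gene. H3F3A, a histone variant gene with copies elsewhere, read 0.101, 0.0844 and 132 FPKM. SCLY read 5.82, 0 and 14.4 FPKM while the readthrough UBE2F-SCLY read 6.41, 10.4 and 0 FPKM, and MIA-RAB4B read 2.79, 5.54 and 0.0088 FPKM. In the SCLY pair the single gene is at 0 in the library where the readthrough is highest, and the readthrough at 0 where the single gene is highest. CELSR3-AS1, an antisense gene, read 0, 0 and 12.3 FPKM and GNG8, a G protein subunit, 3.26, 4.86 and 29.8 FPKM. Lower with shEGR1#9 were DMC1, a recombinase of meiosis, at 12.6, 16.9 and 2.02 FPKM, TMEM60 at 12, 9.08 and 1.55 FPKM and ACYP1, an acylphosphatase, at 8.41, 7.33 and 1.71 FPKM.

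Members 1.5-fold apart between the hairpin libraries were counted beside the 4.19% of all genes higher and 4.33% lower with shEGR1#9. There were 2 among the 50 interferon genes, IRF1 and RTP4, both higher with shEGR1#9. In the mitosis list 4 of 45 were lower with shEGR1#9, NUF2, NCAPG, SPC25 and TTK, of which SPC25, a kinetochore subunit, read 33.3, 25 and 12.4 FPKM and TTK, a checkpoint kinase, 16.4, 17.1 and 9.83 FPKM. Among histones 4 of 22 were higher and 1 lower, of which HIST2H2AC read 28.7, 8.7 and 32.6 FPKM and HIST4H4 12, 1.62 and 9.95 FPKM, lowest with shEGR1#8, both uncertain for their copies. These mitosis and histone genes were named after their values were seen. None of the measured members of the cholesterol, oxidative phosphorylation, E2F or ribosomal protein lists lay that far apart. The share over all genes fell with their level, from 23.1% under 2 FPKM to 0.626% at 100 FPKM or more. These counts were not matched for level, so they are not read as a trait of the lists.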

How the data were processed

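RNA of 15 libraries of the series was sequenced after TruSeq RNA library preparation, per the labels' protocols, and 3 tables were deposited. The authors' deposited values, 1 per gene and library, were read as FPKM; no header or label states this unit, and the values are not whole numbers and do not sum to 1 total. Bowtie2, HISAT and StringTie were used on hg19, per the submitters' processing notes, with versions, filters and scaling between libraries not given in the sources used here. Chromatin immunoprecipitation samples, 4 in number, were not analysed here.

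In the SUDHL2 table the ZZZ3 line runs on into another table, so it and the 429 lines after it were left out, as were 10 lines with repeated names. Another 24 names have the form of a date and are not named. The 2054 short RNA genes were left out, and 11866 other genes stayed under 1 FPKM. Differences were taken as log2(FPKM + 1), with 1.5-fold in both hairpin libraries as the call; calls, medians and motif counts used Python 3.11.15 (pandas 2.3.3, numpy 2.4.6, matplotlib 3.10.9). OCI-LY10 genes with 1 FPKM or more in at least 3 of 9 libraries were fitted in limma 3.58.1 (R 4.3.3) with a mean-variance trend, 1 mean per group, the average of both hairpins against control, and Benjamini-Hochberg adjustment over all genes tested. Nothing in the labels says that these libraries came from separate cultures, and a p-value here reflects the spread between libraries, which may be technical. Both steps were tried on simulated data. The simulated table for the fold rule held no noise, so it checks how the rule was computed and not how reliable the calls are.

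Genes named in the text are EGR1, the 15 furthest above and the 15 furthest below control by the smaller of both differences at 5 FPKM or more, up to 4 members of each of 34 gene lists with their best known members, and the 5 furthest apart each way between the hairpins. Some list members are not reported here. The members and lists were chosen with earlier results of these data known. Promoter windows and gene overlaps come from RefSeq on GRCh38.p14, matched by symbol. That build differs from the one of the tables, and no coordinate was carried over. Other pseudocounts, level filters, fold limits and scalings were tried, and the closing section gives their effect.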

Additional observations from a re-analysis of the deposited data

Results flagged for a closer look

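Among EGR1, the genes furthest from control and all list members called in SUDHL2, there were 11 for which both TMD8 shEGR1 libraries lay on the other side of control than both SUDHL2 shEGR1 libraries. The difference between the lines, OCI-LY10 included, was not tested, since SUDHL2 and TMD8 have 1 library per group. The mean TMD8 difference was 0.45 for EGR1, which read 7.31, 10.8 and 9.95 FPKM there (control, shEGR1#8, shEGR1#9). It was −1.28 for RPL21, at 505, 348 and 123 FPKM. For the histone genes HIST1H4A, HIST1H4L, HIST1H2AB and HIST1H4J it was 4.12, 4.83, 4.42 and 3.25, from 1.77, 0.675, 0.341 and 0.193 FPKM in the TMD8 control. It was −0.70 for INSIG1 (82.5, 43.6 and 58.5 FPKM) and −0.47 for ACAT2 (46.5, 29.3 and 37.8 FPKM), both of cholesterol synthesis, −0.59 for CD274 (8.74, 5.82 and 5.16 FPKM) and −0.41 for CD86 (57.6, 45.6 and 41 FPKM). For CXCR4 it was −0.67 (24.5, 10.7 and 20.9 FPKM), and all 6 OCI-LY10 shEGR1 libraries also lay below the 3 controls, by −0.23 (limma adjusted p = 0.0889). ACAT2 and HIST1H4J were called in SUDHL2, at 27.3, 41.6 and 43.3 and 2.23, 1.11 and 0 FPKM. RPL21 and the histone genes have near-identical copies. The share of short RNA genes moved with the same TMD8 libraries, 36.3% in the control against 62.1 and 58.0%, and its part in these values was not tested.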

How the results depend on the processing

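With 1 library per group and unknown depth, SUDHL2 values under 2 FPKM are the least certain. The counts of 426 genes higher and 177 lower became 734 and 287 with a pseudocount of 0.1, 123 and 31 at 2-fold and 951 and 545 at 1.3-fold. The lower genes numbered 100 at 5 FPKM or more and 111 after rescaling to 1 sum. For shEGR1#8 alone, 988 genes became 1685 with the pseudocount of 0.1, 551 at 5 FPKM or more, 255 at 2-fold and 2420 at 1.3-fold. For shEGR1#9, 1879 became 1087 at 5 FPKM or more, 480 at 2-fold and 3900 at 1.3-fold. Between the hairpins, 966 became 1740, 388, 220 and 2458 under the same 4 settings. The fold limits and the filter change what is counted by construction, and for the pseudocount and the rescaling the cause was not tested. Median-ratio scaling, quantile normalization and no filter kept all counts within 1.5 times. Of 184 single genes followed (those of the naming rule and all called list members), a hairpin difference changed its sign in 2, CIITA and CD5, neither of them called. Calls lost and gained numbered 3 and 8 with rescaling to 1 sum (lost: PHLDA1, PCNA, HIST1H4J), 5 and 1 with median-ratio scaling (lost: TNFRSF13B, ACAT2, CXCR4, ENO2, PLXNC1), 6 and 1 with quantile normalization (lost: HSPD1, RPL23, CD274, CXCR4, ENO2, PLXNC1) and 0 and 15 with the pseudocount of 0.1. In OCI-LY10, leaving out 1 library in turn gave 235 to 914 genes that rose and 87 to 453 that fell in limma, the lowest counts without 1 of the 3 controls, and 70 to 149 shared higher and 7 to 27 shared lower genes; the cause was not tested. At 2-fold the shared genes were 53 and 1, and at 1.3-fold 222 and 57. With the replicate number of the OCI-LY10 titles as a block, 582 genes rose and 263 fell. Deviations of shEGR1#8 and shEGR1#9 libraries with 1 number correlated from 0.14 to 0.28, those of either with the control of that number from −0.20 to 0.06, and 5 of 9 libraries correlated best with their own number, so the number was not taken as a pairing. No paired analysis was possible in SUDHL2 because each group has 1 library.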

Other observations

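Stress responses other than those above are given beside the shares of all SUDHL2 genes called, 3.75% higher and 1.56% lower. Of 26 genes of the unfolded protein response none was called, with medians of 0.14 and 0.17. HSPA5 (BiP), the main chaperone of the endoplasmic reticulum, read 104, 138 and 134 FPKM and HERPUD1, which helps degrade misfolded proteins, 39.8, 50.01 and 48 FPKM. In the heat shock list 1 of 19 was called, lower: HSPD1, the mitochondrial chaperonin, at 774, 449 and 321 FPKM, with its partner HSPE1 at 184, 132 and 119 FPKM. HSPD1 has processed copies and is uncertain, and it fell short of 1.5-fold with quantile normalization (−0.57). In OCI-LY10, HSPD1 fell by 0.29 log2 units (limma adjusted p = 0.0408).

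Of 28 amino acid response genes 3 were called higher and none lower, with medians of 0.05 and 0.04. Besides DDIT4 and ATF5 the third was WARS, a transfer RNA synthetase that interferon also induces, at 57.8, 90.4 and 88.3 FPKM. It rose in OCI-LY10 by 0.30 (SE 0.053, limma adjusted p = 0.00987). ATF4, the factor that drives this response, read 153, 123 and 145 FPKM, and its targets ASNS and TRIB3 33.8, 31.7 and 25 and 9.77, 9.61 and 9.2 FPKM, none called. HMOX1, which degrades haem and is in none of the lists, read 13.8, 41.5 and 38.3 FPKM and was named after its values were seen.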
